A study of Homo sapiens with 12 samples.

Results

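The MLK4 knock-down was examined in HCC1806 cells that received no doxorubicin. HCC1806 is an established human triple-negative breast cancer (TNBC) line, so all libraries derive from 1 cell line. The comparison uses 6 of the 12 mRNA-seq libraries of the series, chosen by their labels. Of these, 3 came from cells transfected with a non-targeting siRNA (siNT) and 3 from cells transfected with a pool of 4 siRNAs against MLK4 (siMLK4), and all 6 received vehicle. The cells were left for 24 h after transfection and then kept for another 24 h with or without 1 μM doxorubicin, a topoisomerase II poison. The sample labels name DMSO as the vehicle and mark these libraries as time 0. The remaining 6 libraries carry the same siRNAs with doxorubicin, 3 for each siRNA, and serve here to see whether a difference recurred. They also enter the estimate of the spread, which all 12 libraries share. Each siRNA was transfected in triplicate, and the p-values measure the spread between these parallel transfections of 1 line. The question was which functions were lost or gained in undrugged cells once MLK4 was depleted.

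MLK4, encoded by MAP3K21, belongs to the mixed-lineage kinases, a family of MAP3 kinases that phosphorylate the kinases upstream of the MAPKs JNK, p38 and ERK. In the ERK branch, growth factors of the EGF family bind their receptors, and active ERK induces immediate early genes, AP-1 and ETS transcription factors and a set of phosphatases and Sprouty proteins that switch the pathway off again. The level of those feedback genes is widely read as a record of recent ERK activity. AP-1 in turn drives secreted proteases, cytokines and adhesion molecules in basal-like breast cancer cells.

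All 4 siRNAs of the pool matched the coding sequence of MAP3K21 over 19 bases. Their sense strands are shown because the pool defines the perturbation, and capitals mark the 7 bases at sense positions 12 to 18 that face bases 2 to 8, the seed, of the guide strand.
siMLK4 #1, target in exon 9: ggaaagaugcuCAGAGAGauu
siMLK4 #2, target in exon 5: aggagaagcccAAGGUAAauu
siMLK4 #3, target in exon 9: agaagaaacgaGAGGGAAuuu
siMLK4 #4, target in exon 7: agaacagauugCAAAGAAauu
On GRCh38, MAP3K21 lies on the plus strand at chr1:233327724-233385148 (GENCODE 44). The target of siMLK4 #1 is chr1:233379030-233379048 in exon 9, that of siMLK4 #2 is chr1:233362204-233362222 in exon 5, that of siMLK4 #3 is chr1:233379276-233379294 in exon 9 and that of siMLK4 #4 is chr1:233376047-233376065 in exon 7. No other annotated transcript contained any of these 19-base stretches. The cells received the pool, so the effect of 1 siRNA cannot be told apart from that of the others.

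Values are given as normalized reads, that is, reads per gene divided by the library's size factor, recovered from the authors' log-scale table. The 6 libraries held 17402498 to 19239066 reads in the 17013 genes of the table. MAP3K21 counted 553, 669.6 and 674 normalized reads in the siNT libraries and 103, 94.7 and 88.7 in the siMLK4 libraries. Every siMLK4 library lay below every siNT library, and 15.1% of the transcript remained (log2 fold change −2.24 ± 0.12, SE, n = 3 per group, adjusted p = 9.74e-08). None of the 6 other mixed-lineage and related kinases measured passed the test. MAP3K13 had a log2 fold change of 0.52 and MAP3K12 of 0.34 (adjusted p = 0.0283 and 0.0456), past neither threshold. MAP3K9 (MLK1) had a log2 fold change of −0.54 (adjusted p = 0.0562), and MAP3K11 (MLK3) had 0.35 (adjusted p = 0.0579). Downstream, MAP2K6, an activator of p38, rose 3.46-fold from 75.2, 82 and 132 to 348, 289 and 365 normalized reads and was the only one of 11 MAP2Ks and MAPKs that passed the test.

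The cells had the epithelial and basal markers of their label. All 8 epithelial genes and all 11 basal or squamous genes exceeded 100 mean normalized reads, led by KRT19 and KRT5. The basal or squamous genes summed to 92786 to 103363 normalized reads in siNT and 70065 to 78225 in siMLK4 libraries without overlap, and 4 of the 11 were called lower. Of the 6 luminal hormone receptor markers, PGR, the progesterone receptor, had no read in the 6 libraries, where a count of 0 allows up to 3 reads each. ESR1 averaged 92.7 ± 18 normalized reads (SD, n = 3) in siNT libraries, ERBB2 1459 ± 171 and GATA3 1304 ± 166. FOXA1 had a log2 fold change of −0.01 (adjusted p = 0.961). The sum over the 6 genes was 3054 to 3437 in siNT and 4218 to 5503 in siMLK4 libraries without overlap, led by GATA3 (log2 fold change 0.74, adjusted p = 0.00378, not called). Leukocyte and endothelial markers were near 0, with summed levels of 13 to 37 and 13 to 58 normalized reads per library, carried by CD14 and VWF. The fibroblast markers in the table summed to 391 to 479 in siNT and 667 to 837 in siMLK4 libraries, most of it COL1A1 (log2 fold change 0.78, called higher, adjusted p = 0.000412). The part of the basal, luminal and fibroblast markers in the results was not tested. In bulk RNA, fewer cells of a kind and less RNA per cell cannot be told apart.

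Within each group the replicates differed by far more than sampling noise, as pairs of libraries had a chi-square of 11.39 to 67.24 for each degree of freedom. The first principal component of the 6 libraries, 42% of the variance, separated siNT from siMLK4 without overlap. A second component of 32.7% cut across the siRNAs. It placed siNT library 1 beside siMLK4 library 3 at one end and siNT library 3 beside siMLK4 library 1 at the other. The order resembled that of the libraries' slopes on transcript length (the change in log2 value per doubling of length), which ran from −0.0753 in siMLK4 library 3 and −0.0397 in siNT library 1 to 0.0791 in siMLK4 library 1 and 0.0869 in siNT library 3. Cytosolic ribosomal protein genes moved with it. Their summed level was 1570487, 1195556 and 1126101 normalized reads in siNT libraries 1 to 3 and 989928, 1151327 and 1806256 in siMLK4 libraries 1 to 3. With the slope as a covariate, 917 of the 961 calls described next were kept.

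**Figure D1:**
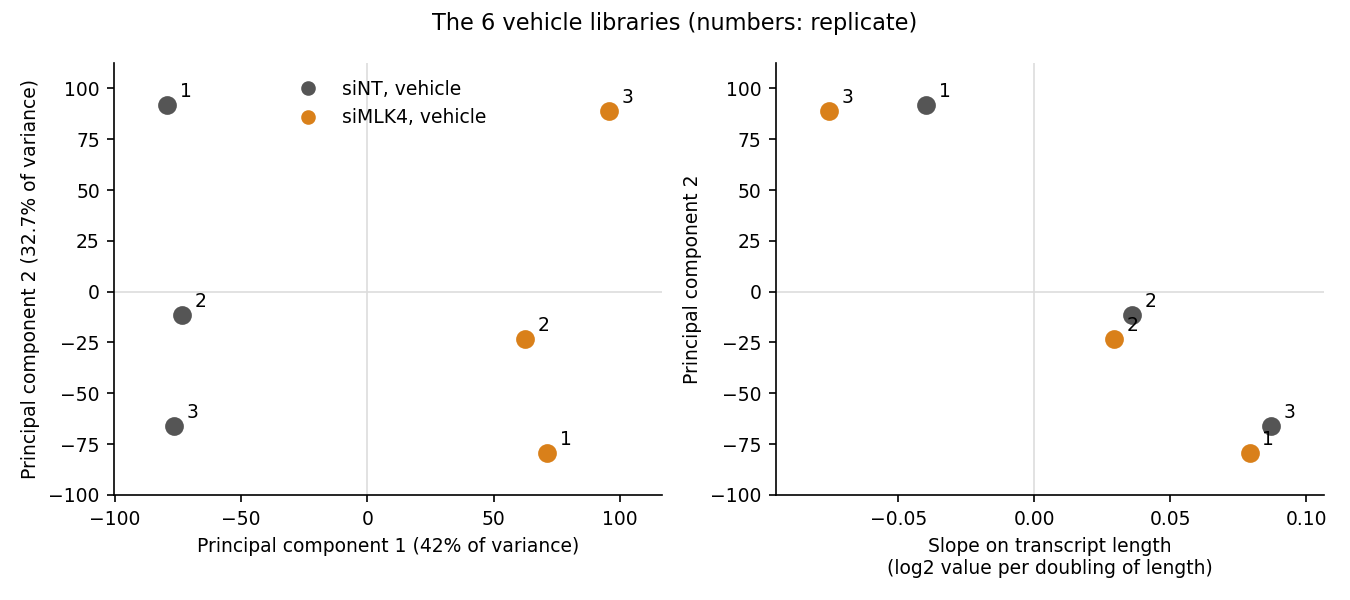
Principal components of the 6 vehicle libraries (left) and component 2 against each library's slope on transcript length (right, log2 value per doubling of length). Each point is a library, grey for siNT and orange for siMLK4, with its replicate number; component 1 separates the siRNAs and component 2 joins siNT library 1 with siMLK4 library 3.

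Fold changes were tested with limma on the log-scale values, and a gene was called at a Benjamini-Hochberg adjusted p under 0.01 over all genes and a log2 fold change beyond 0.75 in either direction. The scale compresses the changes of genes with few reads. Of 17013 genes, 961 (5.65%) were called, 427 (2.51%) higher and 534 (3.14%) lower in siMLK4 cells. The median log2 fold change of all genes was 0.01. Scaling by library totals instead of the deposited size factors raised that median to 0.108 and changed the share of higher calls from 44.4% to 64.7%, with 635 higher and 347 lower. The size factors were 0.852 to 0.963 in siNT and 0.925 to 1.004 in siMLK4 libraries at similar totals. Under that scaling, all 427 higher calls and 347 of the 534 lower calls were kept and none turned. Among genes named below, the calls of DDIT4, SPRED1, RHBDF2, PLAUR, ITGA6, ITGB1, CDC25A, CDKN1A, RRM2B, FADS1, MRPS10, EIF5 and INPP4B were lost. Quantile normalization kept 701 of the 961 calls and turned none. Among genes named below it did not keep NRAS, SPRED1, NRG4, ITGA6, ITGB1, LAMB3, COL17A1, CD44, DDIT4, CDC25A, CDKN1A, SESN1, RRM2B, FADS1, SLC2A3, SLC16A1, MRPS10, DKC1, NOLC1, EIF5, H1-2, MERTK and INPP4B. Leaving out a doxorubicin library, which alters only the estimate of the spread, ended the calls of H1-2 (any of 6 libraries), DDIT4 (4 of the 6), TLR3 (siMLK4 library 1) and INPP4B (siNT library 2). The length covariate ended those of SPRED1, RHBDF2, KRT15, CDC25A and INPP4B, both pseudocounts that of SLC2A3 and the replicate block those of H1-2 and INPP4B. A fit of the 6 vehicle libraries alone kept 611 calls, 251 higher and 360 lower, and none turned. Besides several genes whose dependence on single libraries is given with them, that fit did not keep AREG, CXCL1, CD274, TNFAIP3, MAFF, LAMA3, CD44, DKC1, NOP16, PPP1R15A, SLC7A1, MAP1A, SMAD6, H2AX and H2BC5.

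The genes that fell were more abundant than those that rose. The median level was 694 normalized reads among lower calls, 177 among higher calls and 297 over all genes. Of the 46 called genes with over 5000 mean normalized reads, 45 fell and 1 rose. The exception, named after its value was seen, was GPNMB, a lysosomal membrane glycoprotein, which went from 3179.8, 3321 and 3950.5 to 8526, 7871 and 8152 normalized reads. Genes called lower took 6.15 to 6.50% of all normalized reads in siNT libraries and 3.04 to 3.37% in siMLK4 libraries. Genes called higher took 0.46 to 0.53% and 1.16 to 1.24%. The genes were chosen by their values in these same libraries, so the directions of both shifts follow from that choice. Fewer genes of the table had no read at all after knock-down, 200 to 219 per siMLK4 library against 313 to 354 per siNT library. Of the higher calls 383 were protein-coding genes and 36 lncRNAs, and of the lower calls 505 and 21.

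**Figure D2:**
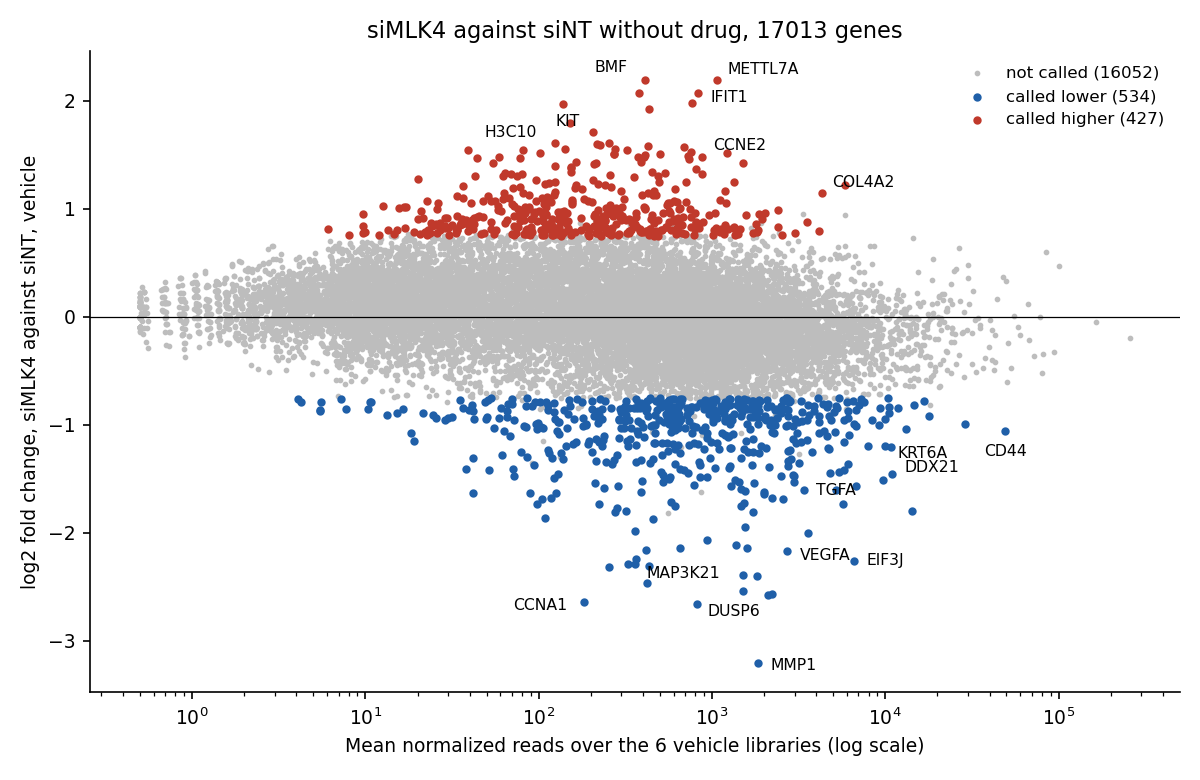
Log2 fold change of siMLK4 against siNT without drug (y axis) against the mean normalized reads over the 6 vehicle libraries (x axis, log scale) for 17013 genes. Genes under 0.5 mean reads are drawn at 0.5; lower calls (blue, 534) have a median of 694 reads and higher calls (red, 427) of 177.

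The strongest losses included genes that ERK is known to induce. MMP1 (chr11:102789401-102798160), the interstitial collagenase, held 3479, 3417 and 3138 normalized reads in siNT libraries and 308, 372 and 272 in siMLK4 libraries, and 9.48% remained (log2 fold change −3.21 ± 0.18, SE, adjusted p = 1.33e-07). The groups were far apart. DUSP6 (chr12:89347235-89352501), the phosphatase that dephosphorylates ERK itself, went from 1686, 1219.9 and 1469.5 to 176, 216 and 171 normalized reads (log2 fold change −2.66 ± 0.12, SE, adjusted p = 4.21e-08). CCNA1, a cyclin mostly known from the germ line, went from 459, 221 and 354 to 21, 12 and 27, and 5.81% remained, a smaller share than for MMP1. Its log2 fold change of −2.64 lies nearer to 0 because the scale compresses low levels. The siNT values of CCNA1 varied about their mean far more than those of MMP1, but no siMLK4 library came near them.

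Among 13 genes listed for feedback on ERK signalling, 7 fell (53.8%, against 3.14% of all genes) and none rose. Their median log2 fold change was −0.85. SPRY4, which blocks signalling between receptor and RAS, fell to 19.4% of its siNT level, from 571, 542 and 694 to 122, 136 and 90.8 normalized reads. The phosphatases DUSP5 and DUSP4 fell to 31.2% and 33.8%, and DUSP7 to 32.9%. IER3, an immediate early gene that was listed with them but is not an established inhibitor of ERK, fell from 4132, 2588 and 2682 to 898, 1183 and 1374. SPRED1, a binding partner of neurofibromin, passed the test with a log2 fold change of −0.78 but lost its call under library totals and without siMLK4 library 3 or siNT library 3. SPRY2 had −0.58 (adjusted p = 0.00084), short of the fold change threshold, and SPRED2 had −0.37 (adjusted p = 0.149).

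The transcription factor targets of ERK followed, with 6 of 12 lower (50%, against 3.14% of all genes), none higher and a median of −1.02. All 3 PEA3-type ETS factors fell. ETV5 held 1306, 724 and 1275 normalized reads in siNT and 223, 206 and 182 in siMLK4 libraries. The lowest siNT value was far above the highest siMLK4 value. ETV4 fell to 34% and ETV1 to 32.9%. EGR1, an immediate early zinc finger factor, fell from 477, 369 and 518 to 98.2, 95.7 and 89.7 normalized reads. FOSL1 (FRA1), the AP-1 subunit typical of basal-like breast cancer, fell from 2131, 2302 and 2373 to 481, 652 and 354 (log2 fold change −2.12 ± 0.16, SE, adjusted p = 8.41e-07). JUN fell to 47.8% and the small MAF protein MAFF to 29.9%. FOS fell to 19.2%, but its log2 fold change was only −0.91, as the scale compresses low levels. It ranged from −2.32 to −0.82 over the alternative settings. In all, 4 of 12 AP-1 subunits fell (33.3%, against 3.14% of all genes) and none rose. FOSL2 had a log2 fold change of −0.28 (adjusted p = 0.119). Of 14 receptor-proximal and core components, 1 was called, NRAS, which fell to 52.1%, and their median of −0.12 turned to 0.01 under library totals.

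Of 10 ligands of the EGF receptor family, 5 fell and 1 rose (60%, against 5.65% of all genes), and no receptor of the family was called. AREG (amphiregulin) went from 5763, 1728 and 3522 to 341, 406 and 906 normalized reads, HBEGF from 3606, 1521 and 2689 to 372, 485 and 431 and EREG (epiregulin) from 2838, 1679 and 3454 to 588, 495 and 535. In AREG and HBEGF the siNT libraries spread widely, library 1 high and library 2 low, and still did not overlap the siMLK4 libraries. TGFA, the most abundant of them, fell from 4831, 4978 and 5524 to 1776, 1785 and 1387 with little spread. NRG1, a ligand of ERBB3, fell to 44.6%. NRG4, another neuregulin, rose 1.89-fold, a call lost without siMLK4 library 1 or siNT library 1. EGFR itself averaged 6186 ± 2102 normalized reads in siNT and 6383 ± 1859 in siMLK4 libraries (SD, n = 3), and the sheddase ADAM17 had a log2 fold change of 0.07 (adjusted p = 0.689). RHBDF2, which carries ADAM17 to the cell surface, passed the test at −0.78 but lost its call under library totals and without siNT library 2 or 3.

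**Figure D3:**
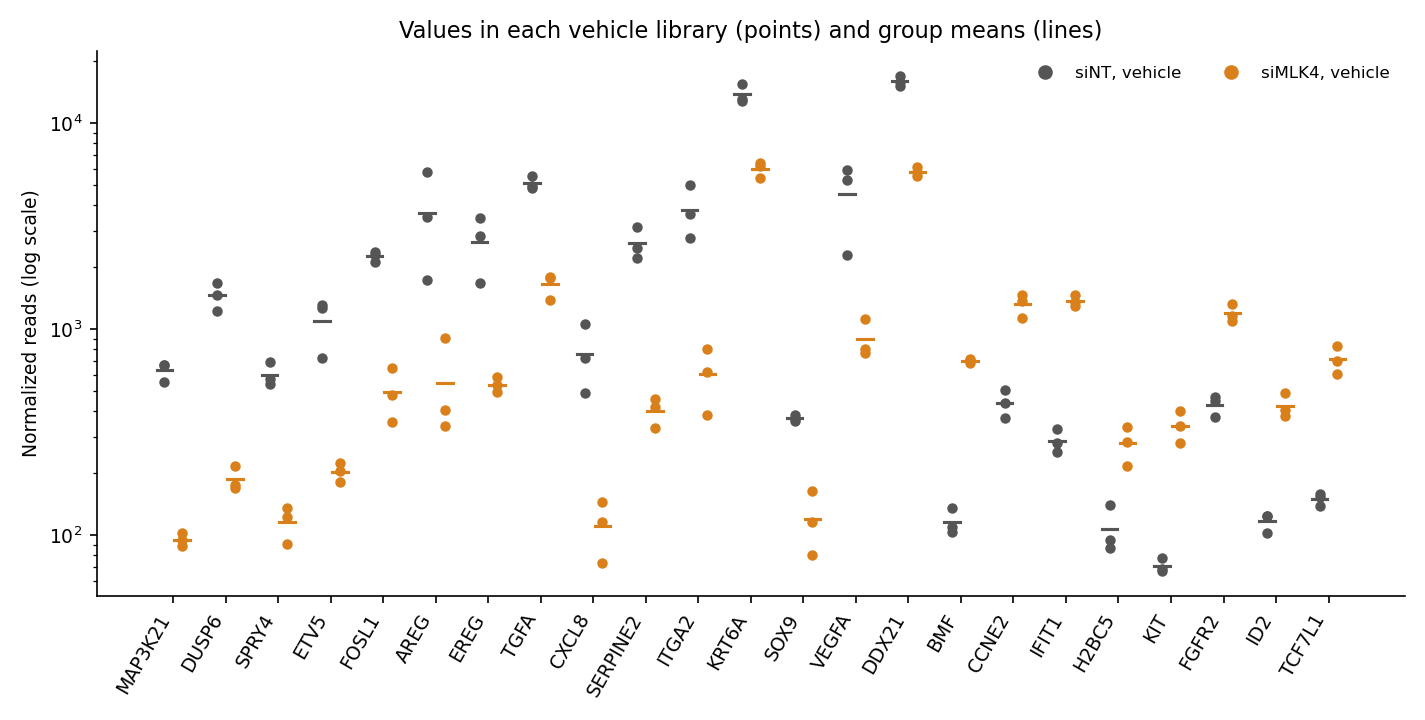
Normalized reads (y axis, log scale) of 23 genes in each vehicle library, grey for siNT and orange for siMLK4, with lines at the group means. In the first 15 genes every siMLK4 library lies below every siNT library, and in the last 8 every one lies above. The groups did not overlap in 37.8% of all genes.

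Of 31 cytokines and chemokines, 5 fell and 1 rose (19.4%, against 5.65% of all genes). CXCL1 and IL24 were among those that fell. CXCL8 (IL-8), the neutrophil attractant, went from 1058, 493 and 729 to 73.1, 116 and 145 normalized reads, and IL1A from 1839, 944 and 1890.5 to 284, 309 and 356. CSF2 (GM-CSF) was low in all libraries and fell from 97.5, 85.1 and 39.3 to 8.02, 14.9 and 5.41. The death ligand TNFSF10 (TRAIL) rose 2.34-fold, a call lost without siMLK4 library 3 or siNT library 1 or 2. PTGS2 (COX-2), the inducible enzyme of prostaglandin synthesis, fell from 3173, 2080.5 and 4060.5 to 584, 477 and 516 normalized reads. Of 19 NF-κB subunits, kinases and inhibitors, 1 passed the test, close to the 5.65% of all genes. It was the deubiquitinase TNFAIP3 (A20), which fell to 47.7%. At an adjusted p under 0.05, 5 of the 19 were lower and none higher, against 2217 lower and 2164 higher of all 17013 genes. The median of the 19 was −0.17, and −0.07 under library totals. The subunit RELB had a log2 fold change of −0.66 (adjusted p = 0.00416), NFKB1 of −0.24 (adjusted p = 0.17) and RELA of 0.02 (adjusted p = 0.934). CD274 (PD-L1), the immune checkpoint ligand, fell to 38.5%.

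Of 35 genes of extracellular proteolysis, proteases and inhibitors together, 11 fell (31.4%, against 3.14% of all genes) and none rose. Their median was −0.24. Of 7 genes of plasminogen activation, 5 fell. Among them were the activator PLAU (urokinase, 49.1% remaining), its receptor PLAUR and the inhibitors SERPINE2 and SERPINB2. SERPINE2 went from 3126, 2221 and 2479 to 332, 459 and 418 normalized reads and SERPINB2 from 2291, 2395 and 2774 to 648, 637 and 536. SERPINB2 shares 18.3% of its 50-base stretches with other genes. The call of PLAUR was lost under library totals and without siMLK4 library 1 or siNT library 1. PLAT, the tissue activator, had 909, 972 and 945 normalized reads in siNT and 929, 889 and 990.3 in siMLK4 libraries, which overlap (adjusted p = 0.973). Besides MMP1, the stromelysin MMP10 was measured at 41.1, 33.2 and 32.6 normalized reads in siNT libraries and at 2, 1.99 and 3.24, no more than 3 reads each, in siMLK4 libraries. The inhibitor TIMP3 fell to 42.6%. These were the 3 calls among 13 metalloproteinases and their inhibitors, whose median was −0.05, and 0.08 under library totals. Of the 13, 4 others were higher at an adjusted p under 0.05 without passing the threshold, against 2164 of all 17013 genes. MMP14 had 0.68, MMP2 0.44 and TIMP2 0.43, and the serine protease PRSS8 had 0.82 (adjusted p = 0.0181).

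Of 18 laminins and collagens, 5 fell and 1 rose, and of 11 integrins 3 fell and none rose. The calls were 33.3% and 27.3% of these lists, against 5.65% of all genes. The median was 0.11 for laminins and collagens, with 9 positive and 9 negative values, and −0.61 for integrins. LAMB3, a chain of epithelial laminin, went from 27408, 21776 and 20826 to 11277, 12969 and 12490.1 normalized reads and LAMA3, another chain, from 5843, 9153 and 10098 to 3909.5, 3543 and 1975. COL17A1, the hemidesmosomal collagen, fell to 51.2%. ITGA2, the collagen-binding integrin chain, lost most, from 2782, 3625 and 5024 to 806, 623 and 385 normalized reads, followed by ITGB1 (54%) and the laminin-binding ITGA6 (55.9%). The last 2 calls were lost under library totals and without siMLK4 library 3, and that of ITGA6 also without siNT library 3. ITGB4, the hemidesmosomal integrin chain, had −0.63 (adjusted p = 0.00373), under the fold change threshold. COL13A1, a transmembrane collagen, fell to 12.3%. COL4A2, of the basement membrane, rose 2.23-fold from 2098, 3149 and 2764 to 6763, 6206 and 4859.6. None of 15 cadherin and tight junction genes was called by limma or limma-voom, and 3 were higher and 3 lower at an unadjusted p under 0.05, beside 3228 higher and 3073 lower (18.1%) of all 17013 genes. CD44, a surface receptor for hyaluronan and one of the most abundant transcripts, fell from 50993, 69879 and 76787 to 35805, 34017 and 24979 normalized reads.

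Of 52 genes of squamous differentiation, 17 fell and 2 rose (36.5%, against 5.65% of all genes), with a median of −0.48. Under library totals 9 fell and 4 rose. Of 15 keratins 5 fell and 2 rose, and of 10 desmosome genes 2 fell, with a median of −0.01. Under library totals no desmosome gene was called, and their median was 0.13. Of 15 genes of the cornified envelope, the cross-linked shell of epidermal cells, 8 fell, none rose and the median was −0.75. LCE3D went from 574, 470.3 and 321 to 89.2, 123 and 146 normalized reads, SBSN from 325, 300.0 and 288 to 92.2, 108 and 102 and SPRR2D from 207, 202 and 238 to 56.1, 66.8 and 56.2. Under library totals 4 of the 8 calls stayed. KRT6A, a keratin of wounded and hyperproliferative epidermis, fell from 12820.4, 15467 and 13112 to 6179, 6375 and 5448 (log2 fold change −1.19 ± 0.11, SE, adjusted p = 4.3e-06), KRT14 from 6932, 6029.8 and 5041 to 2532, 2603 and 3477 and KRT16 to 48.8%. KRT80 and KRT15 rose 1.88- and 1.86-fold. The call of KRT16 was lost without siNT library 1, that of KRT80 without siMLK4 library 1 or 2 or siNT library 1 and that of KRT15 without siMLK4 library 3. KRT5, the usual partner of KRT14, had 17185, 22489 and 22959.8 normalized reads in siNT and 33618, 31749 and 31405 in siMLK4 libraries, with a log2 fold change of 0.64 under the threshold (adjusted p = 0.00736). KRT6A and KRT6B share 32.2% and 46.6% of their 50-base stretches with other genes, KRT14 17%, KRT16 16.5%, SPRR2D 19.4% and LCE3D 13.7%, so reads of near copies may be split among them. Of 27 lineage factors and mesenchymal genes, 5 fell and 1 rose (22.2%, against 5.65% of all genes), and under library totals 2 fell and 2 rose. SOX9, a regulator of progenitor cells, fell from 368, 385 and 359 to 116, 164 and 80 normalized reads and FOXC1 rose 1.82-fold.

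Of 38 ribosome biogenesis factors, 6 fell (15.8%, against 3.14% of all genes) and none rose. At an adjusted p under 0.05 whatever their fold change, 25 were lower, against 2217 of all 17013 genes. The median of the list was −0.49. The nucleolar helicase DDX21 went from 17015, 15198 and 15767 to 5781, 6127 and 5515 normalized reads (log2 fold change −1.45 ± 0.10, SE, adjusted p = 7.32e-07), and PNO1, which assists small subunit maturation, from 1747, 2041 and 2041 to 587, 676 and 594. NOLC1, DKC1, NOP16 and LYAR were the other 4. Of 43 translation initiation factors, 15 were lower and none higher at an adjusted p under 0.05, against 2217 lower and 2164 higher of all 17013 genes. Their median was −0.28, and −0.14 under library totals. By the full test 2 of them fell, beside 3.14% of all genes. The 2 were EIF5 at 59.3%, a call lost under library totals and without siMLK4 library 1 or siNT library 1, and EIF3J (chr15:44537125-44563029), a subunit of the factor that binds the small ribosomal subunit, from 11746, 11392 and 9921 to 2066, 2234 and 2476 normalized reads. Other abundant losses were BZW1 (33.4%), LRPPRC (34.9%), ACTR3 (36.5%), STRAP (38.5%) and TMEM123 (32.5%), of which BZW1 shares 10.5% of its 50-base stretches with other genes. LRPPRC stabilises mitochondrial mRNAs, and ACTR3 is a core subunit of the actin-nucleating Arp2/3 complex.

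Of 39 glycolysis and hypoxia genes, 7 fell and 1 rose (20.5%, against 5.65% of all genes). HK2, the inducible hexokinase, went from 1020.4, 871 and 1008 to 279.5, 283 and 199 normalized reads, PFKM fell to 42.6% and the lactate transporter SLC16A1 to 50.3%. VEGFA, the angiogenic growth factor, went from 5956, 2282 and 5321 to 802, 764 and 1128, with siNT library 2 far below the other two and still above all siMLK4 libraries. SLC2A3 (GLUT3), a glucose transporter, rose 2.15-fold, a call lost without siMLK4 library 1, 2 or 3 or siNT library 1 or 2, and shares 14.4% of its stretches of 50 bases with other genes. Of 28 genes of fatty acid metabolism, 5 fell and 1 rose (21.4%, against 5.65% of all genes), with a median of −0.1. Under library totals 2 fell and 1 rose, with a median of 0.03. ACSL4, which activates polyunsaturated fatty acids, fell from 517, 570.0 and 633 to 75.1, 74.7 and 87.6 normalized reads, and ELOVL5 and FADS1, which lengthen and desaturate them, to 47% and 53.9%. The call of FADS1 was lost under library totals and without siNT library 3.

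The integrated stress response, the ATF4-led program for amino acid shortage and ER stress, had mostly negative fold changes but was uneven between libraries. Of 29 genes 5 fell (17.2%, against 3.14% of all genes), none rose, 28 had a negative log2 fold change and the median was −0.51. Under library totals 3 fell, none rose and the median was −0.36. Relative to each gene's mean over the 6 libraries, the median deviation of the list was 0.60, −0.21 and 0.50 in siNT libraries 1 to 3 and −0.42, −0.54 and 0.22 in siMLK4 libraries 1 to 3. Library 2 of siNT lay below library 3 of siMLK4. CHAC1 shows the pattern at 1872, 494 and 1529 against 216, 176 and 882 normalized reads, with a log2 fold change of −1.62 that did not pass (adjusted p = 0.024). DDIT4, an inhibitor of mTORC1, was called at −1.74 although its groups overlap, at 12216, 4061 and 9876 and 1767, 1436 and 4923, and the call was lost under library totals and without siMLK4 library 1 or 2 or siNT library 1 or 3. PPP1R15A (GADD34) fell to 41% and the arginine transporter SLC7A1 to 48.8% without overlap.

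The gains included genes of the interferon response. Of 46 interferon response genes, 5 rose (10.9%, against 2.51% of all genes) and none fell. At an adjusted p under 0.05, 22 were higher, against 2164 of all 17013 genes, and the median was 0.41. IFIT1, which binds viral RNA lacking cap methylation, went from 255, 330.1 and 281 to 1290.5, 1358 and 1472 normalized reads (log2 fold change 2.07 ± 0.14, SE, adjusted p = 5.74e-07), and the groups were well apart. IFIT2 rose 1.81-fold, IFIT3 1.87-fold, IFI6 2.21-fold and the double-stranded RNA receptor TLR3 1.85-fold. The sensor IFIH1 (MDA5) had a log2 fold change of 0.58 (adjusted p = 0.00147), under the threshold. OAS1 was at 0.12 (adjusted p = 0.717). The call of IFIT1 held without each single library. That of IFIT2 was lost without siNT library 1, that of IFIT3 without siMLK4 library 1 or 2 or siNT library 1 or 2, that of IFI6 without siMLK4 library 3 or siNT library 2 or 3 and that of TLR3 without siMLK4 library 1, 2 or 3 or siNT library 1 or 2. IFI6 shares 16.4% of its 50-base stretches with other genes. Both groups received siRNA, and no untransfected cells were compared.

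The promoters of the genes that moved were searched for the letters of elements that AP-1 and interferon-regulated factors bind. Among 12029 genes with a RefSeq window of 250 bases before to 50 after the start (GRCh38.p14), 3.92% held GAAA and GAAA spaced by 2 bases, the core of an interferon-stimulated response element, on either strand, as did 6.0% of genes called higher, 3.46% of genes called lower and 68.6% of the interferon response genes with a window (24 of 35). TGANTCA, the letters of an AP-1 element, which read the same on both strands, occurred in 7.31% of all windows, in 14.1% of those of genes called lower (57 of 405) and in 7.33% of those of genes called higher (22 of 300). Both motifs were counted separately, whether or not their matches overlapped, and a match is a description of letters only. Shown are 30 bases upstream of the start of 2 genes that fell and 2 that rose, with the match in capitals.
CXCL8: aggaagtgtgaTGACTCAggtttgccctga
IL1A: acaaaaggcgaagaagacTGACTCAggctt
IFIT1: cactttccccTTTCGGTTTCcctaggtttc
IFI6: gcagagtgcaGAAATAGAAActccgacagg
They lie at chr4:73740421-73740450 (plus strand), chr2:112784494-112784523 (minus), chr10:89392510-89392539 (plus) and chr1:27672266-27672295 (minus).

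Histone genes were another group with gains. Of 45 replication-dependent histone genes, 8 rose (17.8%, against 2.51% of all genes), none fell, and the median was 0.31. H3C10 went from 56.4, 34.3 and 29.2 to 184, 179 and 264 normalized reads, H2BC5 from 86.9, 95.5 and 140.3 to 284, 216 and 337 and H2BC21 rose 3.11-fold. Their normal mRNAs lack a poly(A) tail, and the libraries were selected for poly(A), so the values describe the polyadenylated share. H4C3 was at 228, 152 and 144 and 134, 165 and 256 with overlap (adjusted p = 0.895). H2AX, the histone phosphorylated at DNA breaks, whose gene was listed with DNA break signalling, rose 1.95-fold. H2AX and WEE1 were the only calls among 41 genes of DNA break signalling and repair (4.9%, against 5.65% of all genes). Of the 41, 28 were negative, and 6 were lower and 2 higher at an adjusted p under 0.05. The median of that list was −0.13 and moved up under library totals. H2BC12 shares 57.2% of its 50-base stretches with other genes and is uncertain. Its call was lost without siNT library 1, and that of H1-2 under limma-voom, the minimum of 10 reads, quantile normalization and the replicate block and without each of the 12 libraries other than siMLK4 and siNT vehicle library 1.

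Of 30 receptor tyrosine kinases, 4 rose and 1 fell (16.7%, against 5.65% of all genes), with a median of 0.07. KIT, the stem cell factor receptor of luminal progenitors, went from 66.9, 68.5 and 77.5 to 402, 338 and 281 normalized reads (log2 fold change 1.71 ± 0.13, SE, adjusted p = 1.37e-06), with no overlap. FGFR2 rose from 373, 448 and 467 to 1331, 1094 and 1158, EPHB3 2.19-fold and MERTK 2.29-fold (a call lost without siMLK4 library 2 or siNT library 2), whereas EPHA2 fell to 49.8%. Of 32 TGF-β and BMP genes, 4 rose and 5 fell (28.1%, against 5.65% of all genes). ID2, an inhibitor of basic helix-loop-helix factors and a BMP target, rose from 103, 125 and 125 to 406, 378 and 489. BMP4 and the inhibitory SMAD6 rose 2.95- and 2.56-fold, while BMP2 (45.9%), the receptor ACVR1 (25.1%) and the activin chain INHBA (27.6%) fell. Of 36 Wnt and Notch genes 2 were called, close to the 5.65% of all genes, but under library totals 4 rose and 1 fell. TCF7L1, a repressor of Wnt targets, rose from 139, 154 and 159 to 704, 607 and 834 normalized reads, and WNT7A fell to 27%. Of 27 PI3K and FOXO genes, 11.1% were called, against 5.65% of all genes. The regulatory subunits PIK3R3 and PIK3R1 rose 3.58- and 2.23-fold and INPP4B, a lipid phosphatase, fell to 56.8%. The call of PIK3R1 was lost without siMLK4 library 1 or 2, and that of INPP4B under library totals and without siMLK4 library 2 or 3 or siNT library 2 or 3. PIK3R3 shares 17.7% of its 50-base stretches with other genes.

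The 15 highest genes were of mixed function. METTL7A (chr12:50923472-50932510), a lipid droplet protein, went from 394, 276 and 349 to 1467, 1396 and 2509 normalized reads, with siMLK4 library 3 high. BMF (chr15:40087890-40108892), a BH3-only protein that promotes apoptosis, went from 110.4, 104 and 136 to 715, 688 and 708 (log2 fold change 2.19 ± 0.16, SE, adjusted p = 7.63e-07). It was the only call among 15 BCL2 family genes, 6.7% and close to the 5.65% of all genes. BCL2L11 (BIM) had 0.58 (adjusted p = 0.0215). At an adjusted p under 0.05, 2 of the 15 were higher and 4 lower, and the median of the family was −0.14. The matrix proteins VIT and CCDC80 rose 5.59- and 4.5-fold, the B-cell adaptor BLNK 7.73-fold from a low level of 18.8, 34.3 and 41.5, the complement protease C1R 4.06-fold and the guanine nucleotide exchange factors VAV3 and FGD3 3.25- and 4.08-fold. MAP1A, PCDH18 and CROT were also among the 15 highest. METTL7A and C1R share 17.6% and 10.3% of their 50-base stretches with other genes.

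Among cell cycle genes, some G1 regulators were called and no gene of the replication and mitosis lists was. CCNE2 went from 369.9, 509.7 and 440.1 to 1375, 1464 and 1129 normalized reads (cyclin E2), CCNE1 rose 1.92-fold, a call lost without siMLK4 library 2, and the CDK inhibitor CDKN2C rose 2.3-fold. CDKN1A (p21) and the phosphatase CDC25A fell to 54.2% and 56.2%, calls lost under library totals. That of CDKN1A was also lost without siMLK4 library 1 or 2 or siNT library 1, and that of CDC25A without siMLK4 library 3 or siNT library 2. CCND1 had a log2 fold change of −0.72 (adjusted p = 0.00104). None of 41 DNA replication genes and none of 38 mitotic genes was called by limma or limma-voom, against 5.65% of all genes by limma. At an unadjusted p under 0.05, 2 replication genes were higher and 7 lower, and 4 mitotic genes were higher and 1 lower, beside 3228 higher and 3073 lower (18.1%) of all 17013 genes. The WEE1 kinase, which holds cells before mitosis, rose from 1664, 1536 and 1557 to 3263, 3369 and 3000.1. Of 25 p53 targets 24% were called, against 5.65% of all genes, and p53 activity itself was not measured. TP53INP1 and SESN1 rose and PLK3, GADD45A, CDKN1A and RRM2B fell, with a median of 0.00 that moved to 0.12 under library totals. Calls lost without single libraries were SESN1 (siMLK4 library 3 or siNT library 2), GADD45A (siMLK4 library 1 or 2) and RRM2B (siMLK4 library 3 or siNT library 3, and also under library totals).

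Few genes of the general machinery of the cell were called. Of 85 cytosolic ribosomal proteins 1 was called, RPL22L1, a paralog of RPL22, which fell to 44.4%, a call lost without siMLK4 library 1 or 2 or siNT library 1. None of 79 respiratory chain genes, 37 proteasome subunits, 35 splicing factors or 19 heat shock proteins was called by limma or limma-voom, and 2 of 77 mitochondrial ribosomal proteins were, MRPS5 and MRPS10. The call of MRPS10 was lost under library totals, and MRPS5 shares 23.4% of its 50-base stretches with other genes. At an unadjusted p under 0.05, 1 respiratory chain gene was higher and 7 lower, 1 proteasome gene higher and 15 lower, 1 splicing gene higher and 13 lower, and 3 heat shock genes higher and 7 lower, beside 3228 higher and 3073 lower (18.1%) of all 17013 genes. The medians of these lists lay between −0.21 and −0.03 and moved up under library totals, to between −0.06 and 0.11.

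**Figure D4:**
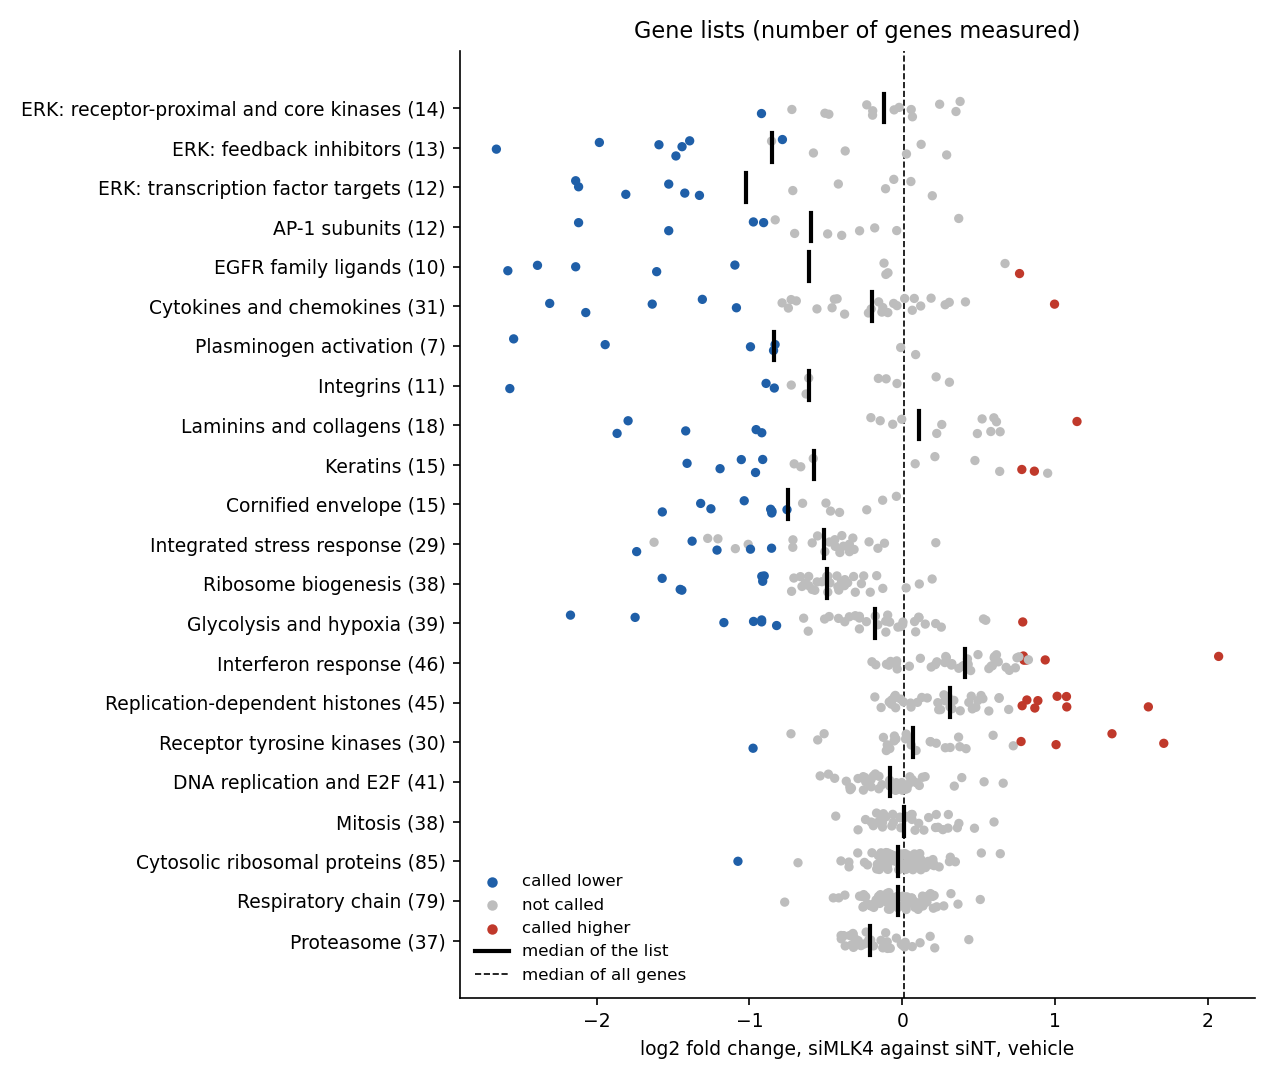
Log2 fold changes of siMLK4 against siNT without drug for the members of 22 gene lists (rows, number of genes measured), blue for genes called lower, red for higher and grey for not called. Bars mark each list's median and the dashed line the median of all genes at 0.01; medians reach −1.02 for ERK transcription factor targets and 0.41 for interferon response genes, and those of the replication, ribosomal protein and respiratory chain lists and of the ERK core kinases turn positive under library totals.

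The group means of the siRNA contrast with doxorubicin come from none of these 6 libraries, but both contrasts share 1 estimate of the spread, so their tests are not independent. In it 950 genes (5.58%) were called. Of the 534 genes that fell without drug, 288 also fell with doxorubicin, 53.9% of the first list and 57.8% of the second. Of the 427 that rose, 138 also rose, 32.3% and 30.5% of the lists. No gene was called in opposite directions. The median log2 fold change of the vehicle calls was −0.96 for lower and 0.91 for higher genes, and the same genes had −0.80 and 0.53 with doxorubicin. The genes were chosen by their vehicle values, so medians nearer to 0 with doxorubicin follow in part from that choice and are no comparison of the effects. MAP3K21 was at −2.37, EIF3J at −2.38, ITGA2 at −2.44 and BMF at 1.66 in the doxorubicin contrast. In the stress response list the median went from −0.51 without drug to 0.10 with doxorubicin.

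The difference between the 2 siRNA effects was tested as an interaction. It was called in 47 genes (0.276%) and 21 of these were among the 961. KIT was at 117, 144 and 158 normalized reads in siNT and 128, 108 and 138 in siMLK4 cells with doxorubicin, with a log2 fold change of −0.12 (interaction −1.83 ± 0.19, SE, adjusted p = 0.00161). DUSP6 was at 1160.0, 1164 and 1204 and 479, 544 and 509.9 with drug, still lower after knock-down but by less (interaction 1.53 ± 0.17, SE, adjusted p = 0.00161). ETV5 and EGR1 had log2 fold changes of −0.53 and −0.70 with drug and were not called there. BASP1, NYNRIN, ID2 and FGD3 rose without drug and had −0.19, 0.05, 0.28 and 0.50 with it. The interaction calls rest on few libraries, and limma made 0 interaction calls without siMLK4 doxorubicin library 1, where 1856 genes had an unadjusted p under 0.05.

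**Figure D5:**
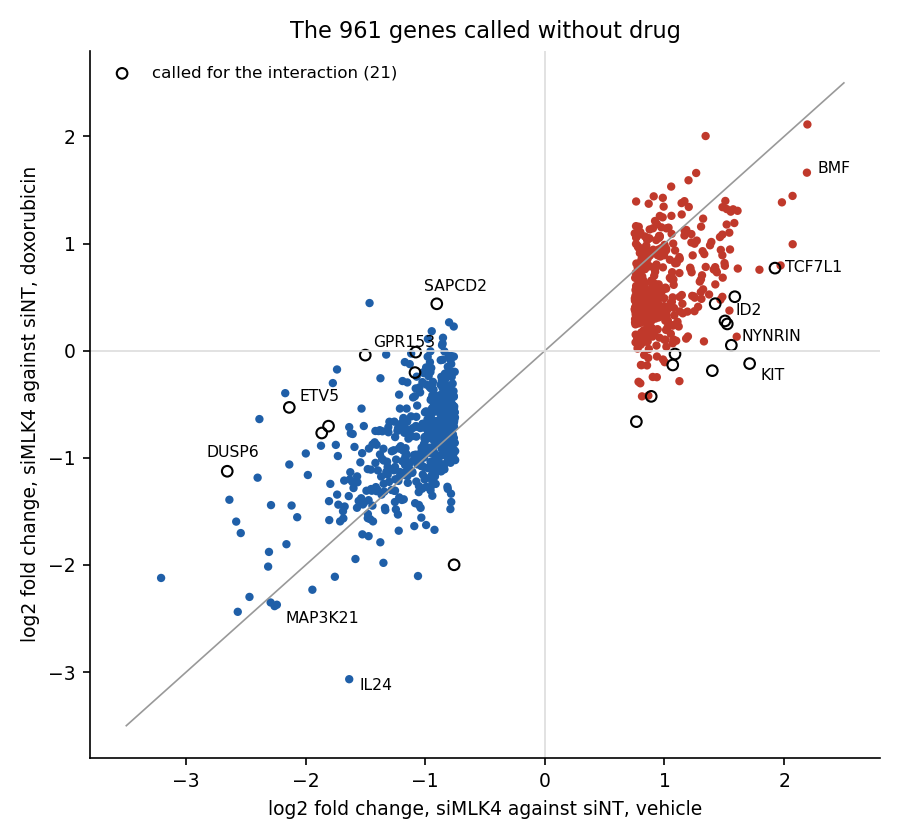
Log2 fold change of siMLK4 against siNT with doxorubicin (y axis) against that without drug (x axis) for the 961 genes called without drug, blue for lower and red for higher. The line marks equal effects and open circles the 21 genes called for the interaction. The genes were chosen by their value on the x axis, so their distance from the line is no measure of a weaker effect with drug.

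Finally, the seeds of the pool were sought in 3′UTRs, because an siRNA guide can pair with transcripts in the manner of a miRNA. Of 13585 protein-coding genes with an annotated 3′UTR, 65.3% of those called lower held the 7-base match of at least 1 guide, against 49.6% of those called higher and 52.2% of those not called. Genes without a match had 2.72% lower and 3.0% higher calls, and the 2773 genes matching siMLK4 #3, shown above with GAGGGAA in capitals, had 6.31% and 2.34%. Genes matching siMLK4 #1, #2 and #4 had 3.89%, 5.0% and 4.01% lower and 2.87%, 1.92% and 2.64% higher calls. Over all 13585 genes the shares were 3.72% and 2.82%. The longest 3′UTRs hold the most matches, with a median length of 989 bases for genes with no match and 2824 for those with any. Among 3′UTRs of 500 to 2000 bases, 5.01% of genes with a match and 2.56% of those without were called lower. By guide, the share was 3.71% for siMLK4 #1, 5.87% for #2, 7.23% for #3 and 4.75% for #4. Over all lengths, the median log2 fold change was 0.009 without and −0.035 with a match. Among the 15 lowest genes, 12 matched at least 1 guide, among them MMP1 (#1 and #4), DUSP6 (#1), EIF3J (#2 and #3) and SERPINE2, POLR2M and HEPHL1 (#3), whereas CCNA1, HBEGF and MAP3K21 itself matched none in the 3′UTR. Among the 15 highest, 9 matched. POLR2M shares 18.7% of its 50-base stretches with other genes. Whether any single gene responded to a seed was not tested.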

How the data were processed

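The authors sequenced poly(A)-selected mRNA of 12 HCC1806 libraries as paired-end reads, trimmed with Trimmomatic 0.39, aligned with HISAT2, removed optical duplicates, counted genes by strand with HTSeq 0.6.0 and transformed the counts with DESeq2 1.26.0. The processing notes in the labels name hg19 and the study's methods name GRCh38, so coordinates were taken from GENCODE 44 (GRCh38) by gene identifier, which matched 16957 of 17013 genes. The deposited values are log2 values after the variance-stabilizing transformation. Inverting it gave whole reads for 100% of the values in each library, within a tolerance of 0.05 reads. Library depth was 16759025 to 19302248 reads, and no interval beyond the replicate spread is given.

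Values were tested as deposited with limma 3.58.1 (R 4.3.3, lmFit and eBayes with a variance trend, 4 group means over 12 libraries), two-sided, with Benjamini-Hochberg adjustment over all genes. The fit was tested on simulated data. The main test used the scale as deposited, and limma-voom on the recovered reads was an alternative. The others were scaling by library totals, quantile normalization, a minimum of 10 reads, pseudocounts of 1 and 8, no trend, the 6 vehicle libraries alone, a replicate block, a length covariate, other thresholds and leaving out each library. Named genes were MAP3K21, members of 45 lists, the 15 highest and 15 lowest calls without overlap and over 1 CPM, the 5 highest and 5 lowest interaction values and up to 10 called genes over 5000 normalized reads. Gene lists and members were chosen with earlier results of these data known. Of the listed genes, 37 were not analysed here. Stretches of 50 bases shared with other genes were counted in GENCODE transcripts, and promoter windows came from RefSeq. Some measured genes are not reported here.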

Additional observations from a re-analysis of the deposited data

Results flagged for a closer look

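The siRNA effect with doxorubicin minus that without drug differed from 0 in the limma interaction test for 18 named genes. On the positive side, the interaction was 1.53 for DUSP6, 1.61 for ETV5, 1.46 for GPR153, 1.34 for SAPCD2, 1.10 for COL13A1 and 1.10 for EGR1, all of which fell without drug, and 1.19 for MPC1 and 1.17 for CXCL10, which were called higher with doxorubicin only. MPC1, a subunit of the mitochondrial pyruvate carrier, had log2 fold changes of −0.43 without and 0.76 with drug, and SAPCD2 had −0.90 and 0.44.

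On the negative side, the interaction was −1.83 for KIT, −1.59 for BASP1, −1.51 for NYNRIN, −1.23 for ID2, −1.15 for TCF7L1 and −1.08 for FGD3, all of which rose without drug. It was −1.93 for PADI2, −1.62 for RASSF10, −1.30 for PLAT and −1.13 for IDI1, which were called lower with doxorubicin only. PADI2, which converts arginine residues to citrulline, had 0.02 without and −1.91 with drug. These calls depend on single libraries, and none was made without siMLK4 doxorubicin library 1.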

How the results depend on the processing

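The log2 fold change of MAP3K21 stayed between −2.33 and −2.20 when single libraries were left out. Leaving out single libraries gave 929 to 1016 calls without drug (403 to 476 higher, 519 to 575 lower), 761 to 1121 with doxorubicin and 384 to 430 shared. Interaction calls ranged from 0 to 37. They were 0 without siMLK4 doxorubicin library 1, 16 without library 2, 11 and 16 without siMLK4 vehicle libraries 1 and 2, 8, 6 and 13 without siNT doxorubicin libraries 1, 2 and 3, and 12 and 28 without siNT vehicle libraries 1 and 3. Limma-voom gave 1483 calls without drug (786 higher), 1468 with doxorubicin, 29 interaction calls and 653 shared calls. A pseudocount of 1 gave 1613 (895 higher) and 671 shared, and one of 8 gave 1611 (894 higher), 1484 with doxorubicin and 668 shared. The 6 vehicle libraries alone gave 611 (251 higher). Library totals gave 347 lower. An adjusted p under 0.05 alone gave 4381 (2164 higher, 2217 lower), 4219 with doxorubicin, 204 interaction and 2287 shared calls, and with a log2 fold change over 1 it gave 389 (142 higher, 247 lower), 359, 87 and 166. The length covariate gave 230 interaction calls. The cause of these shifts was not tested. In the other settings these counts stayed within 1.5 times. For seed matches, the difference in median log2 fold change was −0.044 for the guide strands and −0.017 for the sense strands.

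The replicate numbers did not pair the libraries. Deviations of same-numbered siNT and siMLK4 vehicle libraries correlated at −0.72, 0.32 and −0.52. With the replicate block, 951 genes were called (421 higher, 530 lower), 940 of them among the 961, with 945 calls with doxorubicin, 40 interaction calls and 423 shared.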
